A study of Mus musculus with 26 samples.

Results

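Smr2 and Mucl1 are genes whose symbols and older names mark them as salivary secretory products, and their transcripts were followed here across 5 exocrine glands of the mouse head. Each was represented by 1 probe that carried its symbol, so 2 of the 8841 genes named on the array are described. They were chosen by the male and female scaled intensities of these same arrays, whose differences in the submandibular gland were already known, so their own levels and differences are given as a description, with no test. The mice were of the BALB/c strain. Male and female RNA of 5 glands (submandibular, sublingual, parotid, lacrimal, meibomian) was hybridised to 26 arrays, in 10 groups of sex and gland. Each array held RNA of glands pooled from 5 animals. The sublingual and parotid glands had 2 pools per sex, and the 3 other glands had 3. Per the labels the letters A, B and C stand for separate pools. The labels name no treatment and no genotype beyond the strain, and the age of the mice was not given in the sources used here. A pool shows neither the spread between animals nor which cells of the gland held the RNA.

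Smr2 stands for submaxillary gland androgen regulated protein 2, and its RefSeq synonyms are MSG2 and Vcs2. It belongs to a family of small salivary prohormone-like proteins, whose rat relative is cut to give the peptide sialorphin and depends on androgen. In rodents the granular ducts of the submandibular gland grow under androgen and fill with growth factors and proteases, so that this gland is a classical case of sex difference outside the reproductive tract. Mucl1 stands for mucin-like 1, with the synonyms Spt-2 and Spt2 for salivary protein. Mucin-like proteins carry sugar chains on serine and threonine and help saliva and tears coat a surface. In the RefSeq table of assembly GRCm38.p6, Smr2 is a protein coding gene on chromosome 5 and Mucl1 a transcribed pseudogene on chromosome 15. The arrays measured RNA, so neither protein nor secretion was observed, and a symbol below stands for the probe that carries it.

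The sequence upstream of Smr2 is shown so that the region can be set against common promoter elements, and the RefSeq promoter table used here held 0 entries for Mucl1. The Smr2 stretch holds the 250 bases before the annotated start in RefSeq, on the plus strand at chr5:88086306-88086555 (GRCm38.p6), and the capitals mark the CCAAT matches on either strand.
Smr2 upstream region: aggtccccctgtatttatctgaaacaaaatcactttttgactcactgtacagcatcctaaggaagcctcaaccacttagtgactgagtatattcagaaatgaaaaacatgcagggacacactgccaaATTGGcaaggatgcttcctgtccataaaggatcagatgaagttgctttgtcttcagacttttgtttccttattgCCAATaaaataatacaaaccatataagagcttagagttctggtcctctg
Of 3 motifs searched on both strands, CCAAT matched at 2 places, which do not overlap. The match on the plus strand runs from base -49 to base -45 before the start, and the match on the minus strand, read as its reverse complement, runs from base -123 to base -119. A CCAAT match occurred in 33.8% of 32851 upstream regions of the same length. TATAAA, found in 12.4% of these regions, and AGAACA, a single arm of the element that androgen and glucocorticoid receptors bind, found in 16.1%, had 0 matches upstream of Smr2. A match is a description of letters and not a bound site, and 0 matches says only that these letters are not in this window.

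Values are linear scaled intensities, in which the median probe of each array lay between 0.928 and 0.955, and the brightest probe of an array reached 103 to 868. A level compares 1 probe between groups and says nothing about its level against another probe. A group is called dim where the probe lay below the 30th percentile of its array (0.281 to 0.561 in scaled intensity) on every array of the group. Cells coded -1 were treated as missing. Shared missing cells sorted the arrays into 4 sets of 10, 8, 4 and 4 arrays, each with equal numbers of male and female arrays but with different glands. Set 1 held submandibular pools A and B and the sublingual, parotid and lacrimal pools A. Set 2 held submandibular and lacrimal pools C and the sublingual and parotid pools B. Set 3 held lacrimal pools B and meibomian pools A, and set 4 held meibomian pools B and C. Smr2 was missing on all 8 arrays of set 2 and measured on the other 18, a pattern shared exactly by 42 probes. Mucl1 was measured on all 26. The labels of the sources used here do not say what the sets are.

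Markers set the meibomian gland apart from the other 4 glands, as labelled, and separated those 4 less clearly. Summed over 9 meibocyte markers of 14 listed, meibomian arrays lay at 501 to 601 in males and 447 to 633 in females, and the arrays of the other glands reached at most 69.1. Over 7 of 10 serous acinar markers, meibomian arrays lay at 12.1 to 13.3 in males and 13.9 to 14.7 in females, and all other arrays between 469 and 1457. Mucous acinar markers (3 of 8) were highest in the lacrimal gland, at 290.4 to 469 in male and 289 to 387 in female pools, and in the sublingual gland they reached 63.2 to 77.5 in male and 56.3 to 69.0 in female pools, no higher than the 78.7 to 82.1 in male and 66.2 to 79.2 in female parotid pools. They thus did not mark the sublingual gland as mucous. In the submandibular gland the sums of 8 of 14 marker lists did not overlap between the sexes, 2 higher and 6 lower in males. Of all single probes, 18.9% did not overlap in this gland. In the sublingual gland 4 of the 14 sums did not overlap, where 26.1% of all single probes did not. The counts were 1 (parotid), 2 (lacrimal) and 2 (meibomian) in the other glands. For these the share over all probes on all arrays was not counted, so nothing is read from them. Skeletal muscle markers (10 of 12) summed to 18.8 to 23.1 in male and 3.10 to 4.53 in female submandibular pools, and myoepithelial markers (4 of 8) to 66.1 to 123 in male and 22.8 to 36.2 in female pools. B and plasma cell markers (6 of 9) ran the other way, at 17.4 to 31.1 in male and 37.7 to 48.3 in female submandibular pools. The part of these markers in the submandibular differences below was not tested. In the parotid pools A the muscle markers summed to 222 in the male and 54.4 in the female pool. In bulk tissue, fewer cells of a type and less RNA per cell cannot be told apart.

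Smr2 was bright in male submandibular glands and far lower in female ones, was next brightest in the parotid glands of both sexes, and was low in the lacrimal and meibomian glands. In the submandibular gland Smr2 stood at 125.8 in male pool A and 46.3 in male pool B, against 3.06 in female pool A and 3.17 in female pool B. The male pools lay at percentiles 98.9 and 97.5 of their arrays and the female pools at 71.7 and 73.8. The 4 arrays did not overlap between the sexes, as was so for 40.8% of all probes on these same arrays, and the geometric mean was 76.3 in males and 3.11 in females, a 24.5-fold difference (log2 4.62 ± 0.41, SE from the spread between pools of all groups, n = 2 pools per sex). The male pools differed from each other more than the female pools did, with an SD of 1.02 in males and 0.035 in females on the log2 scale, and the pairs of pools with the same letter gave log2 differences of 5.36 (A) and 3.87 (B). The pooled SD within this gland was 0.72, against 0.41 over all groups, so the printed SE understates the spread here. Male and female pool C had no measured value.

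In the sublingual gland, a largely mucous gland that lies against the submandibular gland, Smr2 stood at 10.0 in the male pool A and 3.09 in the female pool A. This is a log2 difference of 1.70, or 3.25-fold, with 1 measured pool per sex and therefore no spread of its own. In the parotid gland, a serous gland, Smr2 stood at 23.1 in the male pool A and 27.4 in the female pool A, at percentiles 95.2 and 95.8 of their arrays. The parotid difference of -0.25 on the log2 scale was smaller than the SD of 0.41 between pools of a group (8 degrees of freedom). That SD comes from the submandibular, lacrimal and meibomian glands only. Both parotid pools thus stood above both female submandibular pools and below both male ones. The muscle marker sums of these parotid pools differed by sex, as given above, and their part in the Smr2 value was not tested.

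Smr2 in the lacrimal gland, which makes the watery part of tears, stood at 2.97 and 2.65 in male pools A and B, against 2.15 and 1.66 in female pools A and B. The male arrays lay above the female ones (29.7% of all probes did not overlap between the sexes on these same arrays), with a log2 difference of 0.57 ± 0.41 (n = 2 pools per sex). This SE comes from the spread between pools of all groups, and the pooled SD within the lacrimal groups alone was 0.20. The summed level of 2 granular duct markers with a value on every array, Egf and Klk1b5, was 16.0 and 2.97 in male lacrimal pools A and B and 8.76 and 93.5 in female pools A and B, so female pool B stood apart. The part of these transcripts in the lacrimal Smr2 values was not tested. In the meibomian gland, which makes the lipid of tears, Smr2 stood at 1.67, 1.86 and 2.16 in male pools and at 1.48, 2.0 and 1.48 in female pools. These overlapped, and the log2 difference was 0.21 ± 0.33 (n = 3 pools per sex).

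**Figure D1:**
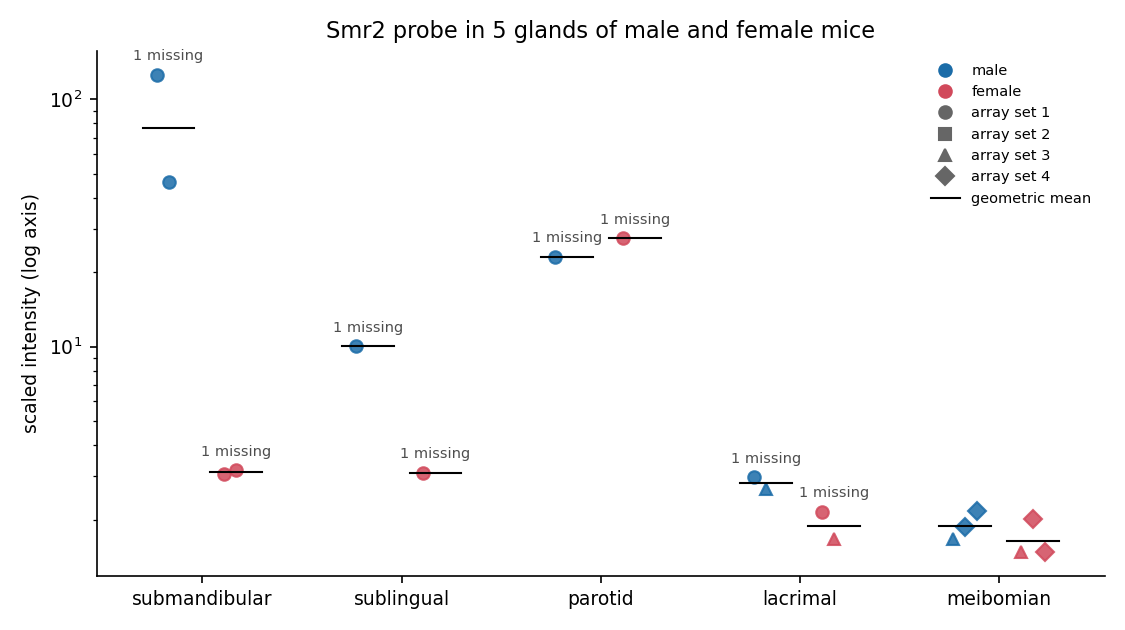
Scaled intensity of the Smr2 probe (log axis) in 5 glands, male pools left of female pools, with marker shape for the array set, a bar for the geometric mean and the count of missing pools above each group. The male submandibular pools at 125.8 and 46.3 are the highest points, both parotid pools lie above 23, and the female submandibular pools sit near 3.1 beside the female sublingual pool.

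Ranked by geometric mean over the 10 groups, Smr2 fell in the order male submandibular, female parotid, male parotid, male sublingual, female submandibular, female sublingual, male lacrimal, female lacrimal, male meibomian and female meibomian. The step below the male submandibular group was 2.78-fold, the step below the male parotid group 2.30-fold and the step below the male sublingual group 3.22-fold. All 3 exceeded the pool SD, which corresponds to 1.32-fold. This SD comes from submandibular, lacrimal and meibomian pools only, since each sublingual and parotid group had 1 measured pool. The male submandibular pools themselves stood at 125.8 and 46.3, so the size of the first step is uncertain. The parotid groups differed by 1.19-fold, and the female sublingual group stood 1.10-fold above the male lacrimal group, both within the 1.32-fold of the pool SD. Female submandibular and female sublingual pools overlapped, as did female lacrimal with male meibomian pools and the meibomian groups with each other.

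Mucl1 ran the other way. It was highest in female submandibular glands, lower in male ones, and near or in the dim range in most other groups. In the submandibular gland Mucl1 stood at 0.624, 0.469 and 0.415 in male pools A, B and C, against 3.56, 2.39 and 1.77 in female pools A, B and C. The male pools lay at percentiles 35.4 to 42.5 of their arrays and the female pools at 62.7 to 74.0, with no overlap, as was so for 18.9% of all probes in this gland. The geometric mean was 0.495 in males and 2.47 in females, a 4.98-fold difference (log2 -2.32 ± 0.36, n = 3 pools per sex). All 3 pairs of pools gave a similar size, at -2.51 (A), -2.35 (B) and -2.09 (C), across both array sets.

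In the sublingual gland Mucl1 stood at 0.101 and 0.157 in male pools A and B, both dim, against 0.742 and 0.728 in female pools A and B. The sexes did not overlap, as was so for 26.1% of all probes in this gland, and against the 30th percentile of the male arrays the female level was at least 2.23-fold higher. As measured, the means were 0.126 in males and 0.735 in females (log2 -2.54 ± 0.44, n = 2 pools per sex). Raising the floor for low values by 10 times reduced the log2 difference to -1.65.

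Mucl1 was dim in both sexes of the parotid and lacrimal glands and in male meibomian glands, so its differences there describe weak signals. In the parotid gland it stood at 0.142 and 0.296 in male pools and at 0.251 and 0.330 in female pools (log2 -0.49 ± 0.44). In the lacrimal gland it stood at 0.235, 0.124 and 0.249 in male pools and at 0.352, 0.188 and 0.379 in female pools (log2 -0.60 ± 0.36). In the meibomian gland it stood at 0.284, 0.187 and 0.268 in male pools and at 0.353, 0.373 and 0.272 in female pools (log2 -0.45 ± 0.36). The sexes overlapped in all 3 glands, and without male parotid pool A the parotid difference became 0.04.

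**Figure D2:**
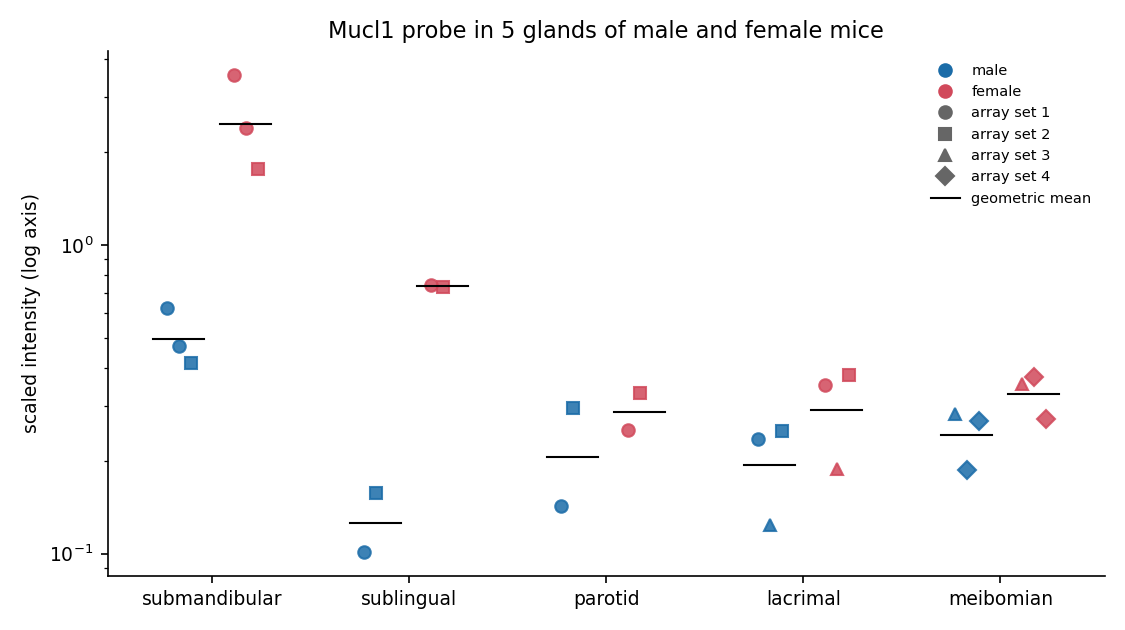
Scaled intensity of the Mucl1 probe (log axis) in 5 glands, male pools left of female pools, with marker shape for the array set and a bar for the geometric mean. Female submandibular pools lie at 1.77 to 3.56 and the male ones at 0.415 to 0.624, the male sublingual group has the lowest geometric mean, and the sexes overlap in the parotid, lacrimal and meibomian glands.

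Ranked by geometric mean, Mucl1 fell in the order female submandibular, female sublingual, male submandibular, female meibomian, female lacrimal, female parotid, male meibomian, male parotid, male lacrimal and male sublingual. The step from female submandibular to female sublingual was 3.36-fold, against a pool SD that corresponds to 1.36-fold (16 degrees of freedom). The following steps, to male submandibular and then to female meibomian, were 1.48-fold and 1.5-fold. From female meibomian downwards each group overlapped the next.

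The sexes shared pool letters, so the differences could be read pair by pair. The 9 same-letter pairs of the submandibular, lacrimal and meibomian glands deviated together over 7555 probes (r = 0.441 to 0.816), although male and female meibomian pools of different letters reached r = 0.491. Only submandibular pools A and B and meibomian pools B and C shared an array set across letters. Elsewhere a shared letter and a shared set cannot be told apart. Smr2 was higher in the male pool in 7 of 9 pairs and lower in 2, the parotid pair A and the meibomian pair B, over a range of -0.25 to 5.36 on the log2 scale. Mucl1 was lower in the male pool in 13 of 13 pairs, over a range of -2.87 to -0.024. The parotid, lacrimal and meibomian pairs among them lay in or near the dim range. How many of all probes had the same sign in every pair was not counted. The pair with the smallest Mucl1 difference was meibomian C, and the 3 lacrimal pairs were close to one another at -0.58, -0.60 and -0.61 although their levels differed. For both genes the submandibular and sublingual pairs were the largest in size.

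**Figure D3:**
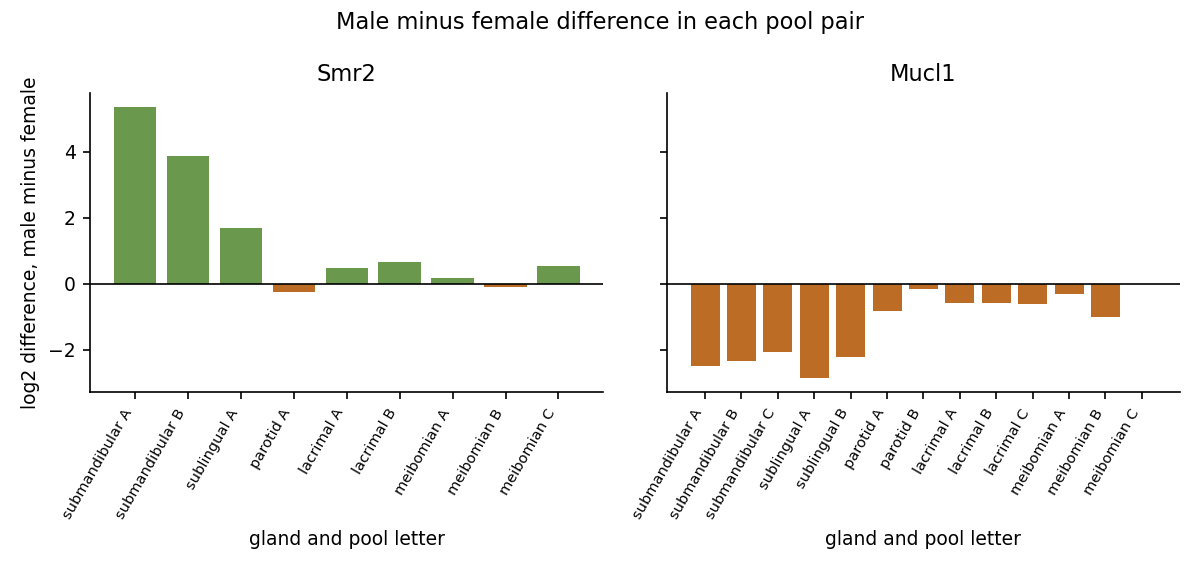
Log2 difference, male minus female, in each pair of pools with the same letter, for Smr2 (9 pairs with a measured value) and Mucl1 (13 pairs). Smr2 bars rise to 5.36 and 3.87 in the submandibular gland and dip below 0 in parotid A and meibomian B, and every Mucl1 bar lies below 0, the last one at -0.024.

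Within array set 1, which holds 4 of the 5 glands, the Smr2 order of glands could be read without crossing sets. There the male minus female log2 difference was 4.62 for submandibular, 1.70 for sublingual, -0.25 for parotid and 0.46 for lacrimal pools. In the same set Mucl1 gave -2.43, -2.87, -0.82 and -0.58 in these glands, and in set 2 it gave -2.09, -2.22, -0.16 and -0.61. The meibomian gland lay in sets 3 and 4 only, so for that gland the set and the gland cannot be told apart in a comparison with the submandibular, sublingual or parotid gland.

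The probes whose 10 group means followed Smr2 most closely were Ncoa3 (Pearson r = 0.96), a coactivator of steroid receptors, Tnfsf12 (0.93), a cytokine of the tumour necrosis factor family, Tgfb2 (0.92), a transforming growth factor, Ntpcr (0.90), a nucleotide phosphatase, Ptprd (0.89), a receptor phosphatase, and Col4a2 (0.89), a basement membrane collagen. The search covered 7112 probes with 1 symbol, and the 10 points share arrays, scaling and gland between the sexes. Their ranges over the groups were narrower than that of Smr2. Tgfb2, for example, stood at 4.56 to 7.41 in male and 1.28 to 1.58 in female submandibular pools. Of these 6 genes, 2 were called in the submandibular sex comparison, in which 2.61% of 8191 probes were called: Tgfb2 rose by log2 1.99 ± 0.23 (limma, adjusted p = 1.67e-05) and Tnfsf12 by 1.55 ± 0.31 (limma, adjusted p = 0.00464). Likeness to Smr2 was scored on the 18 arrays with a Smr2 value, so each sublingual and parotid mean was of 1 array. The calls and the Tgfb2 ranges used all 26 arrays. These include the 18, so the calls are no separate evidence of likeness. Only 3 of the 6 were again among the closest by single arrays, and 3 by rank correlation.

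Mucl1 was followed most closely by Fitm1 (Pearson r = 0.94), a protein of lipid droplet formation, Slc36a1 (0.87), an amino acid transporter, Foxo1 (0.86), a forkhead transcription factor, Mrpl4 (0.86), a mitochondrial ribosomal protein, Mark2 (0.85), a kinase of cell polarity, and Sppl3 (0.85), an intramembrane protease, among 7239 probes over the same 10 groups. In the limma fit 0 of these 6 genes were called in any gland, with 6 of their gland comparisons at an unadjusted p under 0.05 (2 submandibular, 3 sublingual, 1 lacrimal). Of all 8191 probes, 826 (submandibular), 239 (sublingual), 133 (parotid), 1205 (lacrimal) and 19 (meibomian) fell under this unadjusted p. Likeness was scored on the same group means, so the 6 comparisons are no separate evidence of it. Mrpl4 stood at 29.3 to 32.7 in male and 40.6 to 68.8 in female submandibular pools (log2 -0.77 ± 0.30, limma adjusted p = 0.281). By single arrays 2 of the 6, and by rank correlation 3, were again among the closest.

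**Figure D4:**
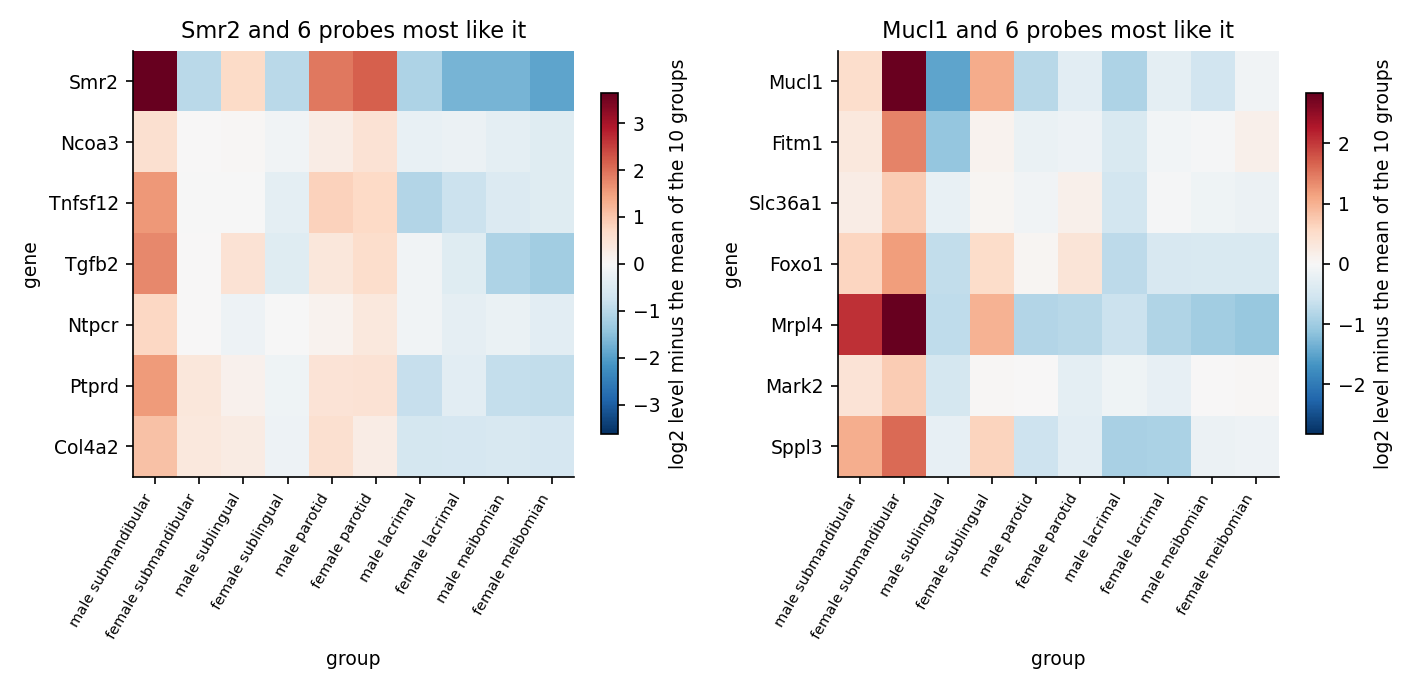
Log2 group means of Smr2 (left) and Mucl1 (right) and of the 6 probes most like each, centred on the mean of the 10 groups, with the male column left of the female one for each gland. The left panel uses the 18 arrays with a Smr2 value. Its top row has the strongest colours, and the peak of Smr2 is in male submandibular glands, followed by both parotid groups. In the right panel the peak of Mucl1 is in female submandibular glands. Mrpl4 is about as strong there and is also high in male submandibular glands.

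The genes that lie beside Smr2 on chromosome 5 include caseins, enamel proteins and other secreted products, and they did not move as a block. Of the 12 protein coding neighbours on each side, 10 of 24 had a probe and all 10 entered the test. The adjacent Smr3a had no named probe. In the submandibular gland 2 of these 10 were called, against 2.61% of all probes, both higher in males. Sult1e1, the estrogen sulfotransferase, stood at 83.2 to 140 in male and 0.208 to 0.777 in female pools (log2 8.13 ± 0.59, limma adjusted p = 7.50e-08). Slc4a4, a sodium bicarbonate cotransporter, stood at 7.01 to 14.7 in male and 0.350 to 0.720 in female pools (log2 4.39 ± 0.48, limma adjusted p = 8.88e-06). Between them and Smr2, Csn1s2a, Csn1s2b, Csn3, Jchain, Utp3 and Dck were not called. Ambn, an enamel matrix protein, had a log2 difference of 2.16 ± 0.60 that missed the threshold (limma adjusted p = 0.0623).

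In the sublingual gland 1 of the 10 neighbours, Sult1e1, was called, against 0.208% of all probes, at 4.69 to 17.9 in male and 0.133 to 0.15 in female pools, at least 27.0-fold higher (log2 6.01 ± 0.72, limma adjusted p = 0.000149), a call lost with only the arrays of this gland in the fit (0.704). In the lacrimal gland 2 were called, against 5.43% of all probes. Csn3, kappa casein, stood at 1.55 to 3.8 in male and 0.287 to 0.863 in female pools (log2 2.28 ± 0.49, limma adjusted p = 0.00596), a call lost with array weights (0.0532) and with only the arrays of the gland (0.100). Jchain, the joining chain of antibodies, stood at 7.16 to 52.8 in male and 0.760 to 5.43 in female pools (log2 2.89 ± 0.78, limma adjusted p = 0.0311). With the pool pairs as a block the Jchain call was lost (limma adjusted p = 0.0650), as it was without male pool A (0.0760), male pool B (0.169) or female pool B (0.207), with array weights (0.308) and with only the arrays of the gland (0.327). B and plasma cell markers (6 of 9, Jchain among them) summed to 41.8 to 82.1 in male and 13.2 to 35.2 in female lacrimal pools, and their part in the Jchain value was not tested. In the parotid and meibomian glands 0 of 10 neighbours were called by limma, with 1 and 0 of them at an unadjusted p under 0.05 and with 0.0244% and 0.0366% of all probes called. Over all 8191 probes, 133 and 19 fell under this unadjusted p in these glands.

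**Figure D5:**
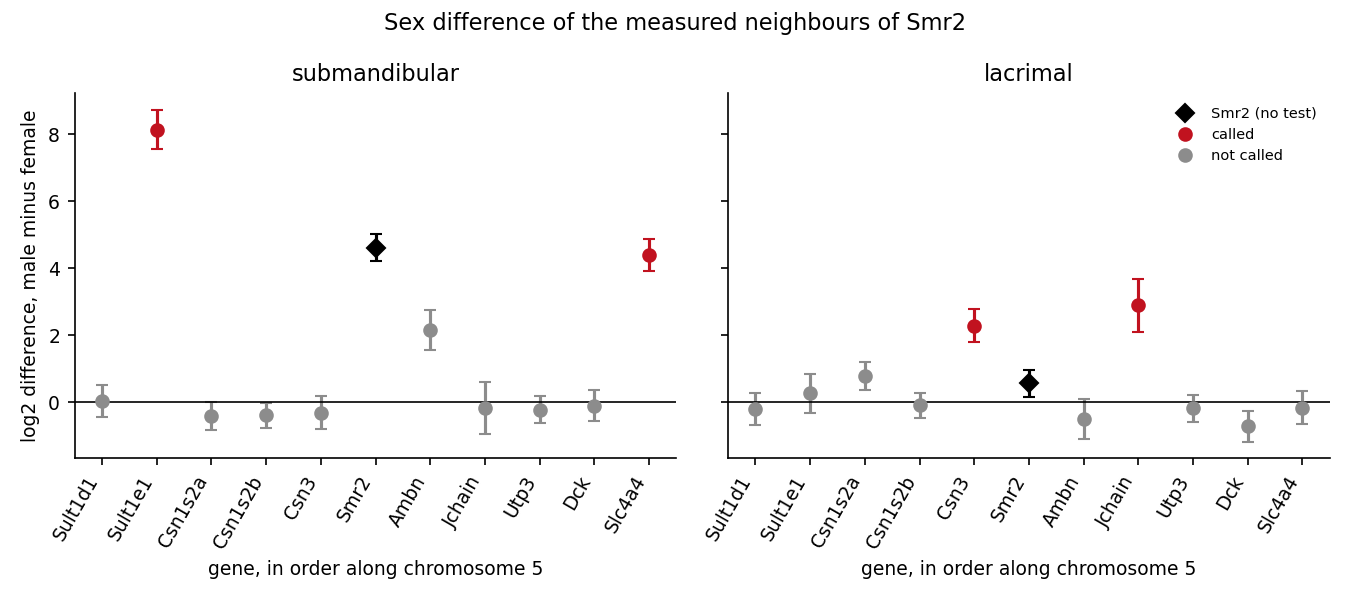
Log2 difference, male minus female, with its standard error, of the 10 measured neighbours of Smr2 in their order along chromosome 5, in the submandibular (left) and lacrimal gland (right). Smr2 is a diamond with no test. Called neighbours are Sult1e1 and Slc4a4 in the submandibular gland, at 8.13 and 4.39, and Csn3 and Jchain in the lacrimal gland, at 2.28 and 2.89.

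Mucl1 lies near the end of chromosome 15 in the gene order, so only 13 protein coding neighbours were taken. Of these, 7 had a probe and 6 entered the test. The adjacent Glycam1 and Mucl2 had no named probe, so whether the Mucl1 probe also reads its near copy Mucl2 was not tested. In the limma fit 0 of the 6 were called in any gland, with 1 comparison, in the submandibular gland, at an unadjusted p under 0.05. In that gland 826 of all 8191 probes fell under this unadjusted p.

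Other saliva and tear proteins gave the setting in which both genes moved. Of 65 listed, 25 apart from Smr2 and Mucl1 entered the test. In the submandibular gland 0 rose and 2 fell in males, where 1.94% of all probes rose and 0.671% fell, and the median log2 difference of the 25 was -0.31 against -0.085 over all probes. Ctrb1, chymotrypsinogen, stood at 1.48 to 2.95 in male and 10.4 to 20.8 in female pools (log2 -2.65 ± 0.35, limma adjusted p = 7.81e-05). Sval2, a seminal vesicle antigen-like secreted protein, stood at 0.379 to 0.833 in male and 1.69 to 3.16 in female pools (log2 -2.04 ± 0.44, limma adjusted p = 0.0108), a call lost without male pool B (0.0863) or female pool A (0.0732). These 2 fell in the direction of Mucl1. With 1.94% of all probes rising, 0 of 25 does not set this list apart from all probes.

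In the lacrimal gland 4 of the 25 saliva and tear proteins rose and 3 fell in males, where 2.91% of all probes rose and 2.53% fell. Bpifb2, of the bactericidal protein family, stood at 3.32 to 12.3 in male and 0.404 to 0.598 in female pools (log2 3.8 ± 0.43, limma adjusted p = 4.52e-06). Crisp2, a cysteine-rich secretory protein, stood at 2.39 to 6.57 in male and 0.543 to 0.941 in female pools (log2 2.35 ± 0.33, limma adjusted p = 6.52e-05). Pnliprp1, a pancreatic lipase relative, stood at 0.725 to 53.8 in male and 451 to 558 in female pools (log2 -7.13 ± 1.46, limma adjusted p = 0.00391). With only the arrays of the gland in the fit the calls of Crisp2 (0.0564) and Pnliprp1 (0.0554) were lost. Csn3 rose with the values given above. In the other 3 glands 0 of the 25 were called by limma, and 0 had an unadjusted p under 0.05, as 239 (sublingual), 133 (parotid) and 19 (meibomian) of all 8191 probes had. The lacrimal differences of Smr2 and Mucl1 were 0.57 and -0.60. They are not ranked against these genes, which were named for the size of their difference.

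Granular duct products are the secreted factors of the androgen-sensitive duct. Of 24 listed, 6 entered the test, and 2 rose in male submandibular glands, where 1.94% of all probes rose, with a median of 0.22 over the 6 against -0.085 over all probes. The products did not all rise: Egf and Klk1b5 together summed to 456 to 520 in male and 364 to 480 in female submandibular pools, which overlapped. Klk1b24, a tissue kallikrein, stood at 162 to 218 in male and 4.64 to 7.78 in female pools (log2 4.96 ± 0.46, limma adjusted p = 8.51e-06). Egf, epidermal growth factor, stood at 189 to 233 in male and 8.46 to 19.7 in female pools (log2 3.83 ± 0.50, limma adjusted p = 6.33e-05). The same 2 genes rose in the male sublingual gland, where 0.208% of all probes were called in either direction, Klk1b24 at 19.0 to 60.4 in male and 1.43 to 2.27 in female pools (log2 4.24 ± 0.57, limma adjusted p = 0.00167) and Egf at 28.6 to 86.5 in male and 3.09 to 7.01 in female pools (log2 3.42 ± 0.61, limma adjusted p = 0.0105). The sublingual call of Klk1b24 was lost where cells coded -1 were raised to the floor (0.285), that of Egf without male pool A (0.198) or female pool B (0.217), and both with only the arrays of this gland in the fit (0.9999 for each). In the sublingual gland these granular duct products were thus high on the same male pool A on which Smr2 was read, and their part in the sublingual Smr2 value was not tested. In the parotid gland Egf stood at 2.15 to 2.19 in male and 1.63 to 1.87 in female pools while Smr2 was bright in both sexes. The sum of Egf and Klk1b5, however, was 139 to 367 in male and 165 to 301 in female parotid pools. Its part in the parotid Smr2 values was not tested. Kallikrein genes are close copies of one another, so the Klk1b24 and Klk1b5 values are uncertain.

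Mucins and mucin-like proteins numbered 28 on the list, of which 10 apart from Mucl1 entered the test. In the submandibular gland 1 rose and 0 fell in males, where 1.94% of all probes rose and 0.671% fell. Muc13, a membrane mucin, stood at 13.8 to 16.3 in male and 2.73 to 3.95 in female pools (log2 2.13 ± 0.45, limma adjusted p = 0.00832), opposite in direction to Mucl1. In the other 4 glands 0 of 10 were called by limma, with 4 comparisons at an unadjusted p under 0.05. Over all 8191 probes, 239 (sublingual), 133 (parotid), 1205 (lacrimal) and 19 (meibomian) fell under this unadjusted p. With the pool pairs as a block the calls of this list over all glands numbered 3 in place of 1. Calls over all probes also rose with the block, to 599 from 214 (submandibular), 36 from 17 (sublingual) and 1126 from 445 (lacrimal).

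Enzymes that build mucin-type sugar chains moved both ways. Of 40 listed, 18 entered the test, and 2 rose and 3 fell in male submandibular glands, where 1.94% of all probes rose and 0.671% fell. St6galnac2, a sialyltransferase, stood at 11.3 to 25.4 in male and 1.35 to 1.79 in female pools (log2 3.57 ± 0.37, limma adjusted p = 7.42e-06). St6galnac1, of the same family, stood at 0.532 to 0.713 in male and 0.15 to 0.216 in female pools, at least 1.78-fold higher (limma adjusted p = 0.00168). St3gal1, a sialyltransferase that caps the core chain, stood at 1.23 to 1.35 in male and 7.48 to 18.9 in female pools (log2 -3.18 ± 0.48, limma adjusted p = 0.000371). St3gal4, a related sialyltransferase, stood at 8.34 to 19.4 in male and 62.1 to 78.9 in female pools (log2 -2.49 ± 0.39, limma adjusted p = 0.000591), a call lost where cells coded -1 were raised to the floor (0.268). In the lacrimal gland 2 of the 18 rose, against 2.91% of all probes. One was St6galnac2, at 16.3 to 32.4 in male and 4.55 to 6.73 in female pools (log2 2.19 ± 0.37, limma adjusted p = 0.000510). The other, C1galt1, which extends the first sugar, was dim in females and is given no fold (limma adjusted p = 0.0491), and its call was lost without any 1 of 5 of the 6 pools (0.0717 to 0.275) and in 5 other settings (0.0514 to 0.646).

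Among sex steroid receptors and enzymes, 22 of 42 listed genes entered the test, and 2 rose in male submandibular glands, where 1.94% of all probes rose. Sult1e1 was one, with the values given above, and Hsd17b3, which makes testosterone from its precursor, was the other, at 1.42 to 3.03 in male and 0.023 to 0.257 in female pools, at least 6.87-fold higher (limma adjusted p = 0.00199), a call lost with a floor 10 times lower (0.0834). Sult1e1 was the single call in the sublingual gland, where 0.208% of all probes were called. In the lacrimal gland 1 rose and 1 fell, where 2.91% of all probes rose and 2.53% fell. Hsd17b11, a hydroxysteroid dehydrogenase, stood at 0.873 to 3.05 in male and 0.427 to 0.717 in female pools (log2 1.80 ± 0.50, limma adjusted p = 0.0370), and Akr1c20, an aldo-keto reductase, stood at 1.40 to 6.13 in male and 7.75 to 19.0 in female pools (log2 -1.92 ± 0.40, limma adjusted p = 0.00480). The Hsd17b11 call was lost without male pool A (0.112) or C (0.148) or female pool A (0.109) or B (0.135), and with no filter on dim probes (0.0577). With array weights the calls of Hsd17b11 (0.169) and Akr1c20 (0.0803) were lost, as they were with only the arrays of the gland (0.235 and 0.303). With the pool pairs as a block the calls of this list numbered 13 in place of 5. The block also raised the calls over all probes, to 599 from 214 (submandibular), 36 from 17 (sublingual) and 1126 from 445 (lacrimal).

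Among transcription factors of secretory cells, 22 of 32 listed entered the test. In male submandibular glands 0 rose and 2 fell, where 1.94% of all probes rose and 0.671% fell, and in male lacrimal glands 0 rose and 3 fell, where 2.91% rose and 2.53% fell. Spdef, a factor of mucous and goblet cells, stood at 4.59 to 4.84 in male and 12.6 to 13.1 in female submandibular pools (log2 -1.45 ± 0.33, limma adjusted p = 0.0163), and mucous acinar markers (3 of 8, Spdef among them) summed to 15.1 to 20.2 in male and 33.8 to 46.0 in female pools, the same direction as Mucl1. The part of these markers in the Mucl1 value was not tested. Stat5a, a signal transducer of prolactin and growth hormone, stood at 0.591 to 1.12 in male and 1.5 to 1.78 in female submandibular pools (log2 -0.99 ± 0.24, limma adjusted p = 0.0230). In the lacrimal gland Sox9 (log2 -1.11 ± 0.31, limma adjusted p = 0.0366) and Sox10 (-0.73 ± 0.20, limma adjusted p = 0.0318), factors of gland development, and Xbp1 (-0.95 ± 0.27, limma adjusted p = 0.0468), a factor of the secretory stress response, were lower in males. The Spdef call was lost without any 1 of the 6 pools (0.0523 to 0.0660), Stat5a without male or female pool A or B (0.0744 to 0.192), and the 3 lacrimal calls without male pool B or any female pool (0.0604 to 0.223). Array weights ended the call of Spdef (0.0635), fitting only the arrays of the gland that of Stat5a (0.183), and each of these settings all 3 lacrimal calls (0.361 to 0.627). With no filter on dim probes the calls of Sox9 (0.0569) and Xbp1 (0.0717) were lost, and that of Xbp1 also with cells coded -1 at the floor (0.05001).

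Of 27 genes named above for a call, 11 also passed a moderated F test in limma of whether the sex difference varied over the 5 glands, which 2.66% of 8190 probes passed. Since all 27 had been called for a sex difference in a gland, this count is a description of them.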

How the data were processed

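One table of 10500 probes by 26 arrays was used. Its linear intensities were deposited after scaling and background subtraction by the authors, as read from the values alone (equal array medians, 1324 small negative cells), since platform and processing are not given in the sources used here. In all, 2241 cells equal to -1 (0.821%) were left out as missing. Lower cells were lifted to 0.0234, the percentile 1 of positive cells, before taking log2. Array medians then spanned 0.0403, so no normalization followed.

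Gene symbols came from the platform's probe annotation, in which 8983 probes had 1 symbol, 1 had several and 1516 had none. Of these, 8975 matched a RefSeq table of GRCm38.p6 by Entrez identifier. Probes that reached the 30th percentile on every array of at least 1 group were kept (8191). The fit used limma 3.58.1 under R 4.3.3 on all arrays, with 10 group means, 16 residual and 4.1 prior degrees of freedom, and Benjamini-Hochberg adjustment over all probes at 0.05. The fit was tested on simulated data. Errors printed after ± are standard errors of a log2 difference. For Smr2 and Mucl1 they come from the spread between their own pools, and these genes are given no test. A fold against a dim group is the brighter group's mean over the 30th percentile of the dim group's arrays.

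The members and lists were chosen with earlier results of these data known. Named genes are up to 4 called members of each list per gland, by size of difference, and the 6 probes of highest Pearson correlation with each member over the 10 group means. Neighbours come from the gene order of the RefSeq table, and those named are the called ones and a few others chosen after their values were seen. In glands with 3 pools per sex, the 9 same-letter pairs of arrays had correlated deviations from the group means (r = 0.441 to 0.816 over 7555 probes). Different letters reached at most 0.491. In set 1, submandibular pairs A and B gave 0.537 and 0.713, against -0.439 and -0.451 between these letters. In set 4, meibomian pairs B and C gave 0.533 and 0.597, against 0.456 and 0.491. Elsewhere each letter of a gland had its own array set, so a shared pool letter and a shared set cannot be told apart. A fit with the pairing by letter as a block was run beside the main one. Array sets were joined where arrays shared missing cells (overlap of at least 0.393 within and at most 0.0505 between sets). Precision is limited by how few arrays there are. The median SD between pools was 0.339 (submandibular), 0.349 (sublingual), 0.345 (parotid), 0.504 (lacrimal) and 0.242 (meibomian) in log2.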

Additional observations from a re-analysis of the deposited data

Results flagged for a closer look

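The Smr2 difference between the sexes was listed because its sign in the parotid gland was opposite to that in other glands. The parotid log2 difference of -0.25 was smaller than the SD of 0.41 between pools of other glands, on 1 measured pool per sex, so it sets no direction. The log2 difference, male minus female, was higher by 4.87 in the submandibular, by 1.95 in the sublingual and by 0.82 in the lacrimal gland than in the parotid gland. These differences between glands were not tested, and the parotid and sublingual values rest on 1 measured pool per sex.

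For 27 named genes other than Smr2 and Mucl1 a moderated F test in limma asked whether the sex difference varied over the 5 glands, and 11 passed, where 2.66% of 8190 probes passed. All 27 had been called for a sex difference in a gland, so the count is no separate evidence. The adjusted p was 5.96e-06 for Sult1e1, 0.000313 for Klk1b24, 0.000420 for Bpifb2, 0.000703 for Slc4a4, 0.000768 for Egf and 0.000779 for St6galnac2. It was 0.00270 for Tgfb2, 0.0108 for St3gal1, 0.0132 for Crisp2, 0.0164 for Ctrb1 and 0.0311 for St3gal4. Bpifb2 and Crisp2 were called in the lacrimal gland and the other 9 in the submandibular gland, Ctrb1 and St6galnac2 also in the lacrimal and Sult1e1, Klk1b24 and Egf also in the sublingual gland.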

How the results depend on the processing

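The Smr2 and Mucl1 differences kept their sign in every gland under each setting run, except Mucl1 in the parotid gland. There, leaving out 1 pool gave -1.02 to 0.038, the last without male pool A. With cells coded -1 raised to the floor, or set to the highest value of their array, Smr2 gave 3.08 and 2.89 in the submandibular and 0.85 and 0.88 in the sublingual gland, since these cells are then equal or nearly equal in both sexes. Mucl1 in the sublingual gland gave -1.65 with a floor 10 times higher, and, in settings added after seeing the data, -2.87 in array set 1 and -2.22 in set 2. Without 1 pool, Smr2 in the submandibular gland gave 3.89 (without male pool A) to 5.34 (without male pool B).

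Counts of called probes depended on the model, and the cause was not tested. With the pool letter as a replicate block they were 599 in the submandibular gland in place of 214, 36 in the sublingual in place of 17, 1 in the parotid in place of 2 and 1126 in the lacrimal in place of 445. For Smr2 and Mucl1 the pairing leaves the mean difference as it was, but the errors printed for them do not use it. Among the list and neighbour calls it ended that of Jchain. With the array set as a term, added after seeing the data, counts were 357, 27 and 689 in the submandibular, sublingual and lacrimal glands. Array weights gave 355 and 195 in the submandibular and lacrimal glands, and 5 in the meibomian in place of 3. A floor 10 times higher gave 26 in the sublingual and one 10 times lower gave 1 in the parotid gland. With only the arrays of the gland, limma called 96 in the lacrimal gland, 0 in the sublingual and 0 in the parotid, with 159 and 79 at an unadjusted p under 0.05 in the last 2. Without 1 pool the counts ran from 141 (without male pool A or B) to 183 in the submandibular, 13 to 29 (the last without male pool A) in the sublingual and 3 to 13 (the last without female pool A) in the parotid gland. Without female pool A the submandibular count was 142.

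List calls over all glands moved as follows. With only the arrays of the gland, saliva and tear proteins had 3 in place of 9, granular duct products 2 in place of 4, steroid genes 3 in place of 5 and secretory transcription factors 1 in place of 5. With the replicate block, mucins had 3 in place of 1 and steroid genes 13 in place of 5. The counts over all probes given above also rose with it in the submandibular, sublingual and lacrimal glands. Mucins had 2 with quantile normalization and 2 with the set term. Transcription factors had 3 with no filter, 2 with array weights and 2 to 7 without 1 pool. Of 459 settings over 31 calls of named genes, 387 kept the call, 72 lost it and 0 changed its direction. Dim groups, such as Mucl1 in the parotid and lacrimal glands and in male sublingual and meibomian glands, and Smr2 with 1 pool per sex in the sublingual and parotid glands, limit what these arrays can show.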
